A study of Mus musculus with 13 samples.

Results

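The genes described here encode collagens, laminins and other proteins of the extracellular matrix, measured in cells labeled as endothelial from SKOV3ip1 ovarian tumors. A list of 36 genes was taken, 13 of the basement membrane and 23 of the interstitial matrix, and where a gene had several probe sets, the one brightest on average over all arrays stood for it. A probe set was found for 35 of the 36, out of 18193 genes with a probe set on the array, and all 35 passed the filter on dim genes that kept 15370 genes. The elastic fiber gene Fbn1 had no probe set in the platform table and was not analysed here.

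RNA was hybridized to 13 Affymetrix mouse arrays, and levels are given as quantile normalized log2 values with a floor of 2.01. The tumor cells were SKOV3ip1, a luciferase-labeled human ovarian cancer line injected into mice, and the arrays hold probe sets for mouse genes. Whether RNA of the human tumor cells also bound to them was not tested. The control group held 5 arrays. The labels name it only as control. The study's methods describe a control IgG as the counterpart of B20 but do not tie it to these arrays. The sensitive group (n = 4) and the resistant group (n = 4) came from mice given B20, a monoclonal antibody against VEGF-A, and were told apart by the bioluminescence of the tumors during treatment. Per the paper, sensitive and resistant tumors were collected at different time points of the treatment, and the sample titles give no day. Response and time on B20 therefore cannot be told apart. The methods list female athymic nude mice (NCr-nu) beside C57BL/6 mice, and the labels give no age and do not tie an array to a named animal. Per the methods, sensitive and resistant tumors were digested with elastase, collagenase A and DNase, passed over Percoll against platelets and red blood cells, and sorted by FACS on CD31. That description does not name the control tumors. The labels call the arrays biological replicates, and the p-values measure the spread between them.

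The basement membrane is the thin sheet on which endothelial cells sit. Networks of type IV collagen and of laminin form it, nidogens and the proteoglycan perlecan join them, and in a growing vessel the endothelium makes much of it together with pericytes. The interstitial matrix fills the space between vessels and cells. It is built mainly by fibroblasts around fibrils of collagen I, III and V, with collagen VI, small proteoglycans, fibulins, elastin and fibronectin bound to them.

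The arrays differed in cell markers within each group. The median of 17 endothelial genes was 3.20, 3.22, 3.36, 6.79 and 7.34 on control arrays 1 to 5, 3.35, 2.97, 2.77 and 3.48 on sensitive arrays 1 to 4 and 4.27, 3.71, 4.16 and 3.46 on resistant arrays 1 to 4. It was thus highest on control arrays 4 and 5 and at most 4.27 elsewhere. Pecam1, the gene of CD31 itself, stood at 2.39, 2.42, 2.61, 6.56 and 6.56 on control arrays 1 to 5, at 3.16, 2.64, 2.32 and 2.83 on sensitive arrays 1 to 4 and at 3.41, 2.91, 3.27 and 2.74 on resistant arrays 1 to 4. On 11 of the 13 arrays the marker of the sort was thus close to the floor, and the name endothelial cell is used below only as a label. The median of 11 macrophage genes was 3.63 to 4.60 on sensitive arrays 1, 2 and 3 and 7.99 to 9.95 on the other 10 arrays. The median of 6 B cell genes was 7.63 on sensitive array 3 and 2.87 to 5.001 on the other 12, and that of 7 platelet genes lay between 3.60 and 5.65. RNA quality, read from how much brighter the 3 prime than the 5 prime probe sets of Actb and Gapdh were on the log2 scale, gave a difference that was 5.95 on sensitive array 4 and 2.23 to 3.82 on the other 12. The correlation between replicates was 0.663 to 0.919 among sensitive, 0.896 to 0.955 among resistant and 0.905 to 0.984 among control arrays.

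Col4a1 and Col4a2 lie head to head on chromosome 8, so that their promoter windows, from 250 bases before to 50 bases after each start, share 78 bases at chr8:11312777-11312854. RefSeq (GRCm38.p6) gave a window for 25 of the 36 genes. The letters CCAAT, the core of a motif bound by the factor NF-Y in many collagen promoters, were searched on both strands of the 250 bases before each start, and no other motif was searched. They occurred in 8 of 30 windows of the matrix genes (26.7%) and in 33.8% of all 32851 windows, and the genes were Col4a1, Col4a2, Col18a1, Lamb1, Nid1, Col1a2, Fbln5 and Thbs2. The stretches below, all on the plus strand and read 5′ to 3′, are shown for the start of Col4a2, where the stretch lies only partly within the bases shared with Col4a1, and for a pair of fibrillar collagen genes whose levels followed a different order over the arrays. Capitals mark CCAAT.
Col4a2, chr8:11312760-11312789: cccgaggagctccCCAATttgttggcgctg
Col1a2, chr6:4505498-4505617: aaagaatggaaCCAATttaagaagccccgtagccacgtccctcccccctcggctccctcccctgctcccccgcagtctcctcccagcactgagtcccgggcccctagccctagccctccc
Col3a1, chr1:45311418-45311537: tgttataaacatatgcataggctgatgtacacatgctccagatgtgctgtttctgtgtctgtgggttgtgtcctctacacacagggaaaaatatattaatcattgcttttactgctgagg
The CCAAT of the Col4a2 stretch began 32 bases before the Col4a2 start and that of Col1a2 109 bases before its start, whereas the 250 bases before the Col3a1 start held none. RefSeq places the Col4a2 stretch inside the Col4a1 gene and the other stretches in no gene. A match of these letters describes the sequence and was not tested as a binding site.

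Within the basement membrane class the network collagens had their highest levels on the same arrays. Col4a1, one of the chains of the collagen IV network, stood at 7.48, 6.77, 7.24, 11.13 and 11.11 on control arrays 1 to 5, at 9.52, 8.88, 6.01 and 6.12 on sensitive arrays 1 to 4 and at 7.11, 9.59, 8.23 and 8.34 on resistant arrays 1 to 4. Its partner chain Col4a2 stood at 5.59, 4.77, 5.15, 9.38 and 9.61 on control arrays 1 to 5, at 7.47, 6.78, 3.35 and 4.42 on sensitive arrays 1 to 4 and at 5.36, 7.03, 6.14 and 6.37 on resistant arrays 1 to 4. Both were highest on control arrays 4 and 5 and lowest on sensitive array 3, and within each group the range of levels overlapped with those of the other groups. Of the proteoglycan collagens that anchor the basement membrane to its surroundings, Col15a1 ranged from 3.54 on sensitive array 3 to 6.98 on control array 5. Col18a1, whose cleaved end is the angiogenesis inhibitor endostatin, stood at 5.11, 4.57, 5.07, 8.30 and 8.32 on control arrays 1 to 5, at 6.66, 7.18, 4.10 and 4.45 on sensitive arrays 1 to 4 and at 4.16, 6.79, 5.18 and 5.11 on resistant arrays 1 to 4. It too was highest on control arrays 4 and 5, and sensitive arrays 1 and 2 and resistant array 2 came next.

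The laminin chains did not all share this order. Laminin is a trimer of an alpha, a beta and a gamma chain. Lamb1, a beta chain, stood at 5.81, 5.56, 6.27, 9.59 and 9.50 on control arrays 1 to 5, at 6.02, 6.94, 5.69 and 4.92 on sensitive arrays 1 to 4 and at 4.96, 7.87, 6.03 and 5.68 on resistant arrays 1 to 4. Control arrays 4 and 5 exceeded every other array, and the values of the other control arrays lay within those of the treated groups. Lama4, the alpha chain typical of vessels, was likewise highest on control arrays 4 and 5 (7.31 and 7.50), followed by resistant array 2 (6.79), and lowest on sensitive array 3 (3.86). Lamc1, the common gamma chain, had its highest values on sensitive array 2 (6.10) and control arrays 5 and 4 (6.08 and 5.93), and its lowest on sensitive array 3 (4.47). Lama5, the alpha chain of mature vessels and epithelia, was highest on sensitive arrays 1 and 2 (5.79 and 5.15). Lama2, the alpha chain best known from muscle and nerve, stood at 4.58, 3.73, 3.37, 3.36 and 3.37 on control arrays 1 to 5, at 4.12, 4.68, 3.78 and 3.48 on sensitive arrays 1 to 4 and at 3.48, 4.12, 3.56 and 3.44 on resistant arrays 1 to 4. All its values lay in a narrow range, with control array 1 and sensitive array 2 at the top. Lamb2, the other beta chain, stood at 4.09, 4.16, 4.32, 4.98 and 5.22 on control arrays 1 to 5, at 5.74, 3.54, 2.39 and 2.98 on sensitive arrays 1 to 4 and at 4.04, 5.58, 5.30 and 3.77 on resistant arrays 1 to 4. Sensitive array 1 was the highest of all and sensitive array 3 the lowest, so that the sensitive group spanned both other groups.

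The linker proteins also split. Nid1, which ties laminin to collagen IV, stood at 7.07, 6.04, 7.09, 8.88 and 9.02 on control arrays 1 to 5, at 7.41, 8.17, 5.98 and 4.13 on sensitive arrays 1 to 4 and at 5.74, 8.49, 6.78 and 6.02 on resistant arrays 1 to 4. Its lowest value was on sensitive array 4, the array with the large 3 prime to 5 prime difference. Nid2, its relative, stood at 2.70, 2.45, 2.01, 5.74 and 4.87 on control arrays 1 to 5, at 2.16, 3.59, 2.01 and 2.41 on sensitive arrays 1 to 4 and at 2.98, 4.09, 3.29 and 2.34 on resistant arrays 1 to 4. It lay at the floor on control array 3 and sensitive array 3. Hspg2, the gene of perlecan, stood at 5.68, 6.14, 7.85, 6.10 and 6.34 on control arrays 1 to 5, at 8.59, 8.24, 5.45 and 5.84 on sensitive arrays 1 to 4 and at 5.60, 6.88, 6.13 and 7.58 on resistant arrays 1 to 4. Here sensitive arrays 1 and 2 and control array 3 were highest, and control arrays 4 and 5 lay within the range of the other control arrays.

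In counts, 8 of the 13 basement membrane genes (Col4a1, Col4a2, Col15a1, Col18a1, Lama4, Lamb1, Nid1 and Nid2) were higher on control arrays 4 and 5 than on all other 11 arrays, against 0 of 22 interstitial matrix genes and 2.86% of all genes tested. Within the control group alone, 10 of the 13 and 3 of the 22 (Sparc, Fbln5 and Thbs1) were higher on control arrays 4 and 5 than on control arrays 1, 2 and 3, against 12.1% of all genes. These are the arrays on which the endothelial median stood at 6.79 and 7.34, and its part in the levels was not tested. In such bulk samples fewer cells of a type and less RNA per cell cannot be told apart. The pattern was noticed in these data and is given as a description.

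**Figure D1:**
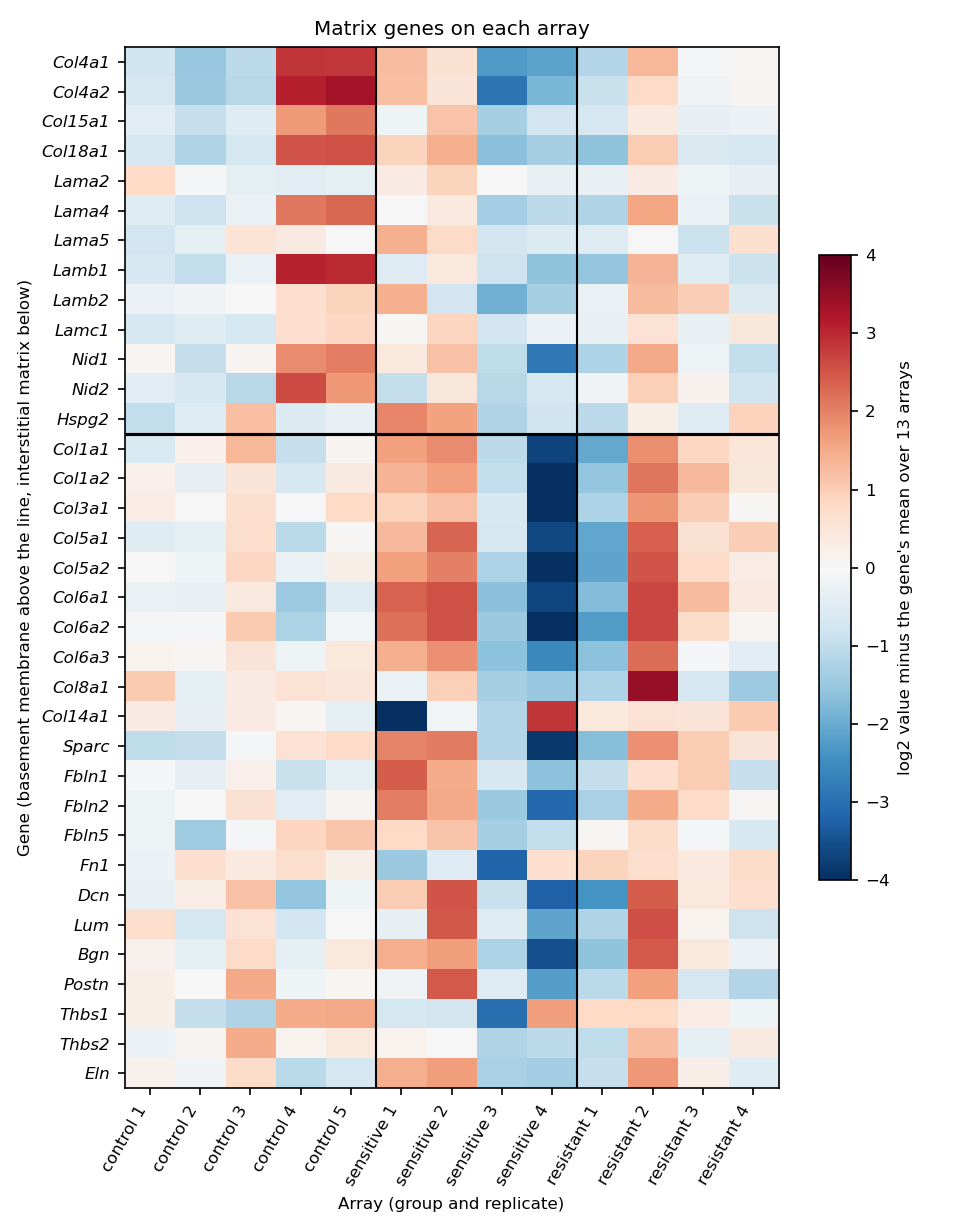
Level of each of 35 matrix genes (rows, basement membrane above the line) on each of 13 arrays (columns), as log2 value minus the gene's own mean over the arrays, with the color scale ending at 4 on either side. Most basement membrane genes are highest on control arrays 4 and 5, while most interstitial genes are high on sensitive arrays 1 and 2 and resistant array 2 and lowest on sensitive array 4.

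Among the interstitial genes, the fibrillar collagens shared another order. Col1a2, a chain of collagen I, stood at 9.92, 9.40, 10.23, 9.07 and 10.08 on control arrays 1 to 5, at 11.08, 11.36, 8.74 and 5.18 on sensitive arrays 1 to 4 and at 8.16, 11.86, 11.02 and 10.18 on resistant arrays 1 to 4. Col3a1, the collagen of fine reticular fibers, stood at 11.03, 10.71, 11.38, 10.72 and 11.53 on control arrays 1 to 5, at 11.65, 11.91, 10.10 and 5.94 on sensitive arrays 1 to 4 and at 9.50, 12.51, 11.71 and 10.78 on resistant arrays 1 to 4. Both were highest on resistant array 2 and sensitive array 2 and lowest on sensitive array 4, where Col3a1 lay more than 3 log2 units under every other array. Col1a1, the other collagen I chain, ranged from 4.06 on sensitive array 4 to 9.64 on sensitive array 2. The collagen V chains, which set the width of the fibrils, ranged from 3.13 to 9.14 (Col5a1) and from 3.32 to 10.30 (Col5a2), both from sensitive array 4 to resistant array 2.

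Collagen VI, a beaded filament around cells, followed the same order. Col6a1 stood at 6.85, 6.84, 7.52, 5.68 and 6.61 on control arrays 1 to 5, at 9.48, 9.68, 5.45 and 3.46 on sensitive arrays 1 to 4 and at 5.39, 9.79, 8.40 and 7.53 on resistant arrays 1 to 4. Sensitive arrays 1 and 2 and resistant array 2 stood above the other 10 arrays, and the sensitive group contained both a value near the top and the lowest value of all. Col6a2 ranged from 3.25 to 9.99 and Col6a3 from 3.70 to 8.52, again from sensitive array 4 to resistant array 2. Col8a1, a network collagen of vessels, lay between 2.91 and 5.48 on 12 arrays and stood at 7.91 on resistant array 2.

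The small proteoglycans and most glycoproteins that bind collagen ran with the fibrils. Sparc, a collagen-binding matricellular protein, stood at 7.69, 7.73, 8.62, 9.29 and 9.46 on control arrays 1 to 5, at 10.69, 10.78, 7.51 and 4.85 on sensitive arrays 1 to 4 and at 6.99, 10.54, 9.72 and 9.22 on resistant arrays 1 to 4. It was one of the interstitial genes in which control arrays 4 and 5 also exceeded the other control arrays. Dcn, the proteoglycan decorin, stood at 8.52, 9.07, 9.97, 7.26 and 8.64 on control arrays 1 to 5, at 9.83, 11.33, 7.90 and 5.56 on sensitive arrays 1 to 4 and at 6.41, 11.24, 9.23 and 9.47 on resistant arrays 1 to 4. Lum ranged from 3.44 to 8.11 and Bgn from 4.79 to 10.78, both from sensitive array 4 to resistant array 2. Postn, periostin, a matricellular protein of activated fibroblasts, stood at 5.67, 5.41, 6.94, 5.23 and 5.48 on control arrays 1 to 5, at 5.27, 7.85, 4.88 and 3.21 on sensitive arrays 1 to 4 and at 4.32, 7.06, 4.75 and 4.25 on resistant arrays 1 to 4. Sensitive array 2, resistant array 2 and control array 3 were its 3 highest arrays, 1 from each group. Of the fibulins, Fbln1 was highest on sensitive array 1 (7.55), Fbln2 on sensitive array 1 (8.505) and Fbln5, which helps assemble elastic fibers, on sensitive array 2 (5.44). Eln, elastin, ranged from 4.36 on sensitive array 4 to 7.51 on resistant array 2.

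Over the class, 11 of the 22 interstitial genes (Col1a1, Col1a2, Col5a1, Col5a2, Col6a1, Col6a2, Col6a3, Sparc, Fbln2, Bgn and Eln) were higher on sensitive arrays 1 and 2 and resistant array 2 than on the other 10 arrays, against 0 of 13 basement membrane genes and 4.93% of all genes. Sensitive array 4 was the lowest of all 13 arrays for 17 of the 22, against 2 of the 13 (Lamb1 and Nid1) and 6.43% of all genes. Among the resistant arrays, number 2 was the highest for 19 of the 22 interstitial genes and 11 of the 13 basement membrane genes (24.8% of all genes), and number 1 was the lowest for 17 and 8 of them (30% of all genes). The arrays in these counts were picked after the levels were seen, and the counts are given as a description. The mesothelial median, over 10 genes of the peritoneal lining, was 4.29, 4.93, 5.25, 3.19 and 3.97 on control arrays 1 to 5, 8.31, 7.88, 2.87 and 2.58 on sensitive arrays 1 to 4 and 3.27, 6.97, 6.34 and 5.64 on resistant arrays 1 to 4. That of 13 fibroblast genes was 5.25, 4.84, 5.35, 4.91 and 4.98 on control arrays 1 to 5, 5.88, 5.18, 3.34 and 3.16 on sensitive arrays 1 to 4 and 4.09, 5.96, 5.13 and 4.26 on resistant arrays 1 to 4. The 3 arrays on which the 11 genes were highest had the highest mesothelial medians as well, and sensitive array 4 had the lowest median of both lists beside its 3 prime to 5 prime difference of 5.95. The median of 12 mural cell genes was 5.09 and 4.38 on sensitive arrays 1 and 2 and 2.62 to 4.34 on the other 11. The part of these cells and of RNA quality in the levels was not tested.

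**Figure D2:**
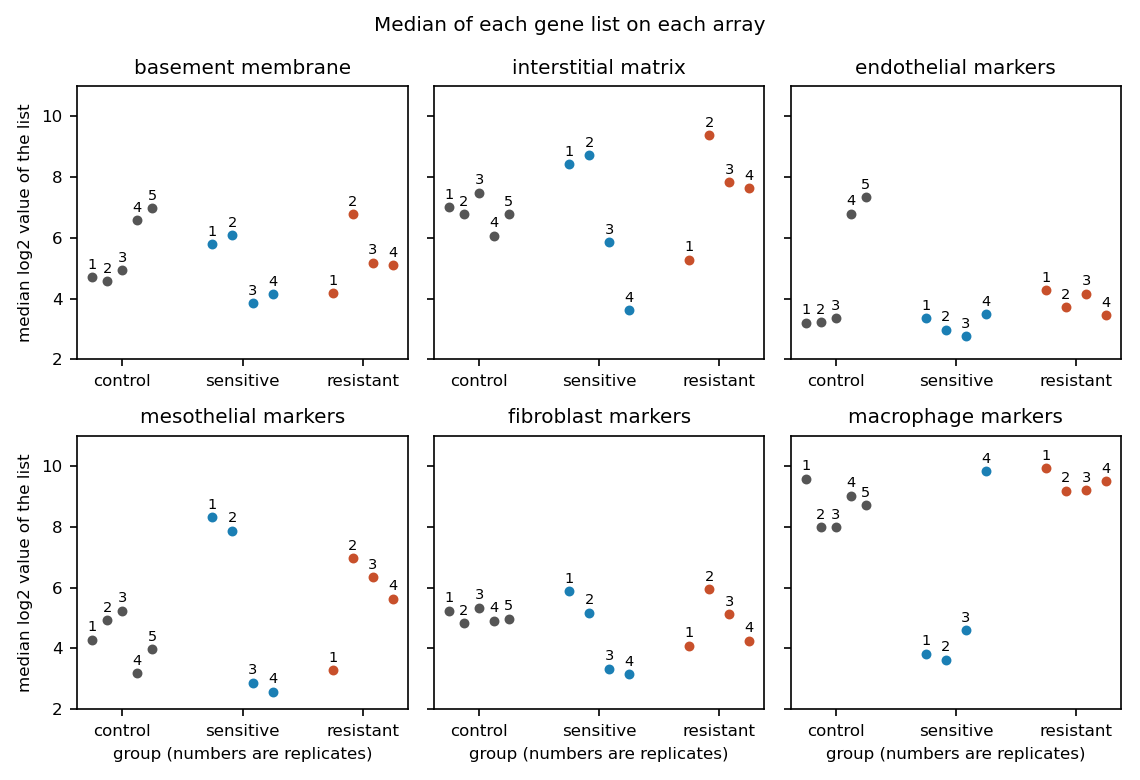
Median log2 value of 6 gene lists (panels) on each array, by group, with each point labeled by its replicate number. The basement membrane median is highest on control array 5 (6.98) and the endothelial median on the same array (7.34), while the interstitial median is highest on resistant array 2 (9.38) and lowest on sensitive array 4 (3.61).

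A small set of interstitial genes went against this order, Thbs2 only in part. Fn1, fibronectin, a glycoprotein to which cells adhere and which macrophages also secrete, stood at 10.96, 11.88, 11.61, 11.91 and 11.45 on control arrays 1 to 5, at 9.74, 10.70, 8.01 and 11.88 on sensitive arrays 1 to 4 and at 12.11, 11.92, 11.60 and 11.94 on resistant arrays 1 to 4. Sensitive arrays 1, 2 and 3 were the lowest of the 13, and sensitive array 4 lay within the resistant group. Thbs1, thrombospondin 1, an inhibitor of angiogenesis found in platelets, macrophages and endothelium, stood at 9.31, 8.12, 7.87, 10.55 and 10.60 on control arrays 1 to 5, at 8.36, 8.34, 6.04 and 10.75 on sensitive arrays 1 to 4 and at 9.85, 9.86, 9.36 and 8.87 on resistant arrays 1 to 4. It was lowest on sensitive array 3 and highest on sensitive array 4, so that all values of the other groups lay inside the sensitive range. Col14a1, a collagen on the surface of fibrils, stood at 7.38, 6.73, 7.39, 7.16 and 6.67 on control arrays 1 to 5, at 2.95, 6.97, 5.89 and 9.93 on sensitive arrays 1 to 4 and at 7.49, 7.64, 7.59 and 8.11 on resistant arrays 1 to 4. The control and resistant arrays were each within a narrow range, while the sensitive arrays held both the lowest and the highest value. Between sensitive and control arrays it differed by -0.63, and another probe set of the gene by 0.28. Thbs2, thrombospondin 2, of fibroblasts, stood at 3.61, 3.96, 5.32, 3.999 and 4.27 on control arrays 1 to 5, at 3.99, 3.83, 2.64 and 2.81 on sensitive arrays 1 to 4 and at 2.82, 5.09, 3.47 and 4.20 on resistant arrays 1 to 4. It was highest on control array 3 and resistant array 2, and lowest on sensitive array 3. Within the treated groups it kept the interstitial order, with sensitive arrays 1 and 2 above 3 and 4 and resistant array 2 highest.

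Within the sensitive group, Fn1 was lower on arrays 1, 2 and 3, where the macrophage genes were low, than on array 4. Arrays 1, 2 and 3, with macrophage medians of 3.82, 3.63 and 4.60, had Fn1 at 9.74, 10.70 and 8.01. Array 4, with a median of 9.84, had Fn1 at 11.88. Among arrays 1, 2 and 3 the highest macrophage median went with the lowest Fn1, on array 3, where the B cell median was 7.63. Array 4 had the 3 prime to 5 prime difference of 5.95. The part of macrophage RNA in the Fn1 levels was not tested.

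**Figure D3:**
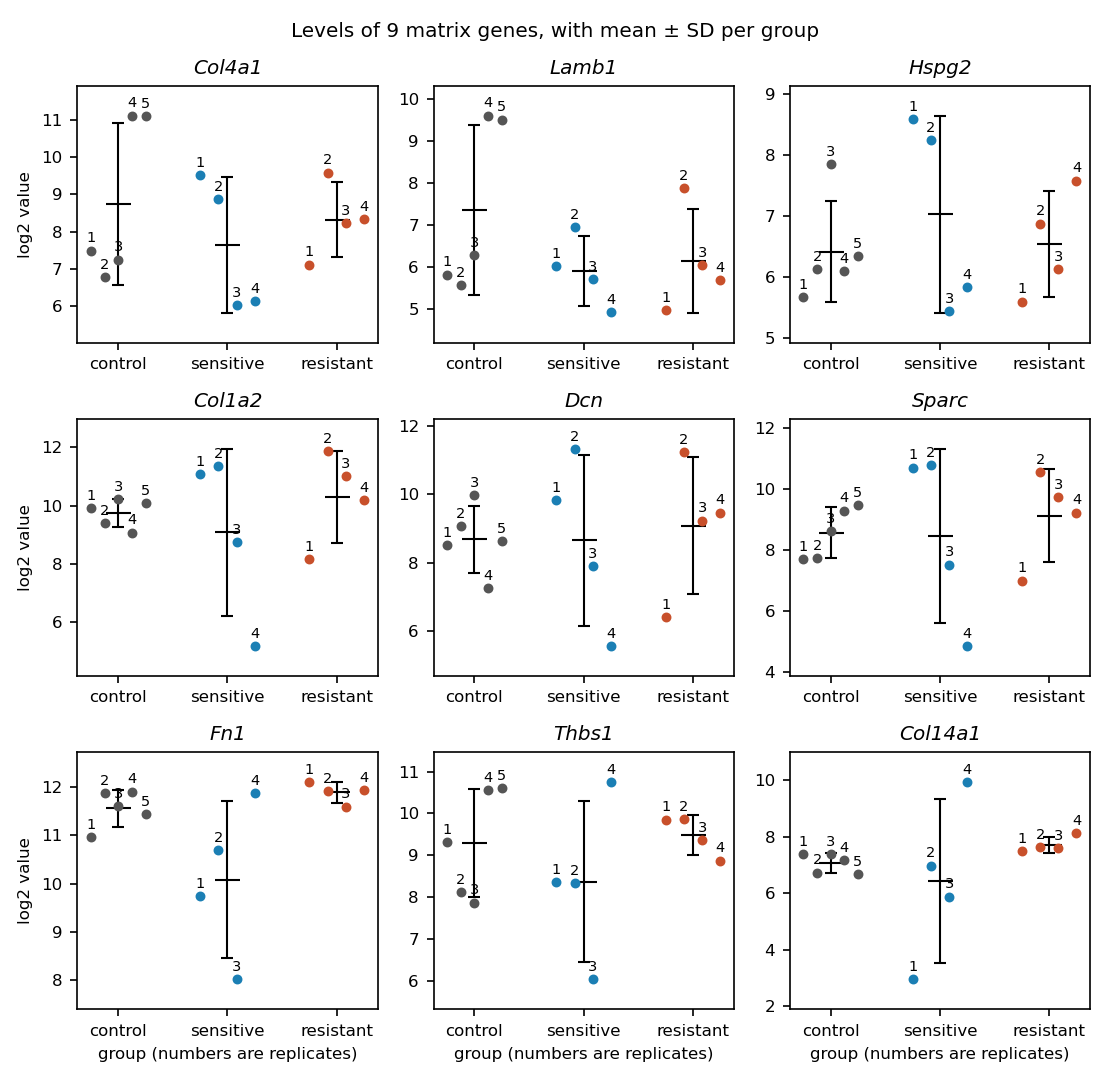
Log2 levels of 9 matrix genes on the 13 arrays, by group, with replicate numbers at the points and the mean ± SD of each group in black. The upper row holds basement membrane genes and the middle row interstitial genes that are lowest on sensitive array 4. The lower row holds 3 of the interstitial genes that are not, and Fbln5 and Thbs2, not drawn, are not either.

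The spread within groups was large beside the difference between them. The residual SD had a median of 1.18 over the basement membrane genes and of 1.56 over the interstitial genes, against 0.508 over all genes tested. The share of a gene's variance that lay between groups had a median of 10.9% in the basement membrane class, 3.93% in the interstitial class and 15.8% over all genes. Among the 35 matrix genes it was highest for Fn1, at 46.3%. The SD was largest in the sensitive group for 20 of 22 interstitial genes and for 4 of 13 basement membrane genes, against 74.5% of all genes.

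Resistant and sensitive arrays were compared for genes that went with the loss of response to B20 or with the time on treatment. Interstitial matrix genes had higher means on the resistant arrays in 20 of 22 cases, with a median log2 fold change of 0.58, and basement membrane genes in 9 of 13, with a median of 0.24, against a median of -0.07 and 42.1% positive over all genes. No member passed the test: 0 of 35 had an adjusted p under 0.05 by limma, as did 0% of all genes. Before adjustment the methods' t-test gave 0 members at p under 0.05, against 528 of all 15370 genes. After adjustment it gave 0 members and 0 genes. At an unadjusted p under 0.05 by limma 1 of the 35 was higher, Fn1, against 4.54% of all genes, and 0 were lower, against 2.53%. The groups did not overlap in 0 of 35 members and in 1.87% of all genes. The interstitial median was -0.42 without sensitive replicate 4, and it was 1.31 without sensitive replicate 2 and also 1.31 without resistant replicate 1. The basement membrane median was -0.24 without resistant replicate 2, -0.08 without sensitive replicate 4 and -0.00042 without sensitive replicate 3.

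Fn1 averaged 10.08 ± 1.64 (SD, n = 4) over the sensitive arrays and 11.89 ± 0.21 (SD, n = 4) over the resistant arrays, a log2 fold change of 1.81 (SE 0.59), or 3.51-fold. It did not pass by limma (adjusted p = 0.534), and the exact permutation p over 70 arrangements was 0.0571. Without sensitive replicate 4 the log2 fold change was 2.41 and 1 of 35 members, Fn1, passed (adjusted p = 0.0163 by limma). That fit called 428 of the 15370 genes. Without sensitive replicate 3 the log2 fold change was 1.12. A second probe set of Fn1 gave 1.33. Thbs1 differed by 1.11 (SE 0.84, adjusted p = 0.797 by limma) and Col14a1 by 1.27 (SE 0.98, adjusted p = 0.797 by limma). Col14a1 differed by 0.11 without sensitive replicate 1 and by -0.20 without sensitive replicates 1 and 2, and Thbs1 by 0.34 without sensitive replicate 3. Without sensitive replicate 4 they differed by 2.44 and 1.91. With sensitive array 4 alone, the array with the 3 prime to 5 prime difference of 5.95, the differences were -1.26 for Thbs1 and -2.22 for Col14a1. Fn1 stood at 11.88 on that array, beside its mean of 11.89 over the resistant arrays.

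In the basement membrane class the smallest p-values belonged to Lamb2, Lama2 and Nid2. Lamb2 differed by 1.01 (SE 0.64), with an adjusted p of 0.775 by limma, and by 0.59 without sensitive replicate 3 and 1.70 without sensitive replicate 1. Lama2 differed by -0.37 (SE 0.35, exact permutation p = 0.229), and by 0.02 without sensitive replicates 1 and 2. Nid2 differed by 0.63 (SE 0.72, exact permutation p = 0.286), and by 0.33 without resistant replicate 2 and 0.98 without sensitive replicate 2. Other probe sets had the opposite sign in 6 of 24 members with several tested, which were Sparc, Nid1, Col18a1, Eln, Thbs2 and Lamb1. The count was 10 of 24 between sensitive and control arrays and 5 of 24 between resistant and control arrays. For Sparc, another probe set gave -1.59 in place of -0.10 between sensitive and control arrays and -0.63 in place of 0.56 between resistant and control arrays.

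Enzymes that make and crosslink collagen were described beside these genes. Of 18 tested, 14 had higher means on the resistant arrays (median 0.53), against 42.1% of all genes. Of these 3 had an unadjusted p under 0.05, against 4.54% of all genes, and 0 passed by limma. Macrophage marker genes moved with the same comparison, with 11 of 11 positive, a median of 3.03 and 10 at an unadjusted p under 0.05, and their part in these values was not tested. P4ha1, a subunit of the prolyl hydroxylase that stabilizes the collagen helix, stood at 7.73, 8.47, 8.24, 7.76 and 7.46 on control arrays 1 to 5, at 7.06, 5.88, 5.33 and 6.86 on sensitive arrays 1 to 4 and at 8.45, 7.79, 8.16 and 7.44 on resistant arrays 1 to 4. Every sensitive array lay below every resistant and every control array, and the difference between resistant and sensitive arrays was 1.68 (SE 0.40, adjusted p = 0.398 by limma). Plod1, a lysyl hydroxylase that prepares collagen crosslinks, stood at 6.50, 6.53, 6.02, 7.22 and 7.08 on control arrays 1 to 5, at 5.91, 4.55, 3.79 and 6.88 on sensitive arrays 1 to 4 and at 8.24, 6.60, 7.52 and 7.04 on resistant arrays 1 to 4. Sensitive array 4 lay within the resistant range, and the difference was 2.07 (SE 0.58, adjusted p = 0.449 by limma). Of 23 other matrix genes tested, 16 had higher means on the resistant arrays (median 0.14), against 42.1% of all genes, with 2 higher at an unadjusted p under 0.05, against 4.54%, and 0 passing by limma. These were Emilin1, an elastic fiber glycoprotein, with 1.56 (SE 0.40), and Ltbp1, which holds latent TGF-beta in the matrix, with 1.66 (SE 0.44), both with an adjusted p of 0.433 by limma. In both, the 4 resistant arrays lay above the 4 sensitive arrays, where 1.87% of all genes did not overlap in either direction.

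Sensitive and control arrays were compared for differences in tumors responding to B20. Means were lower on the sensitive arrays in 9 of 13 basement membrane genes (median -0.89) and in 18 of 22 interstitial genes (median -0.37), against a median of 0.09 and 58.4% positive over all genes. By limma 0 of 35 members had an adjusted p under 0.05, as did 0% of all genes. Without adjustment the methods' t-test gave 0 members at p under 0.05, against 1370 of all 15370 genes. With adjustment it gave 0 members and 0 genes. At an unadjusted p under 0.05 by limma 1 of 35 was lower, Fn1, against 6.58% of all genes, and 0 were higher, against 5.31%. The groups did not overlap in 0 of 35 members and in 3.03% of all genes. Without control replicates 4 and 5 the basement membrane median was 0.34, and without sensitive replicate 4 the interstitial median was 0.62, so the direction of each class rested on these arrays.

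Fn1 had a mean of 11.56 ± 0.39 (SD, n = 5) on control arrays and differed by -1.48 (SE 0.56, adjusted p = 0.341 by limma), a 2.79-fold lower level on the sensitive arrays. The exact permutation p over 126 arrangements was 0.0714. Without sensitive replicate 4 it differed by -2.08 (adjusted p = 0.0214 by limma), in a fit that called 696 of the 15370 genes and 1 of 35 members. Without sensitive replicate 3 it differed by -0.79, and without sensitive replicates 1, 2 and 3 by 0.32. Thbs2 differed by -0.92 (SE 0.48, exact permutation p = 0.0952), and other probe sets of the gene by -0.15 and -0.52. Col3a1 differed by -1.18 (SE 0.97), and by 0.15 without sensitive replicate 4. Lamb1 differed by -1.45 (SE 0.89), Nid2 by -1.01 (SE 0.68) and Lamb2 by -0.89 (SE 0.60), with adjusted p-values of 0.497, 0.519 and 0.519 by limma. Without control replicates 4 and 5 the values of Lamb1 and Nid2 were 0.01 and 0.16, and Lamb2 ran from -1.59 without sensitive replicate 1 to -0.47 without sensitive replicate 3. The collagen enzymes had a median of -0.26, with 4 of 18 lower at an unadjusted p under 0.05, and the other matrix genes a median of -0.11, with 3 of 23 lower, against 6.58% of all genes.

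**Figure D4:**
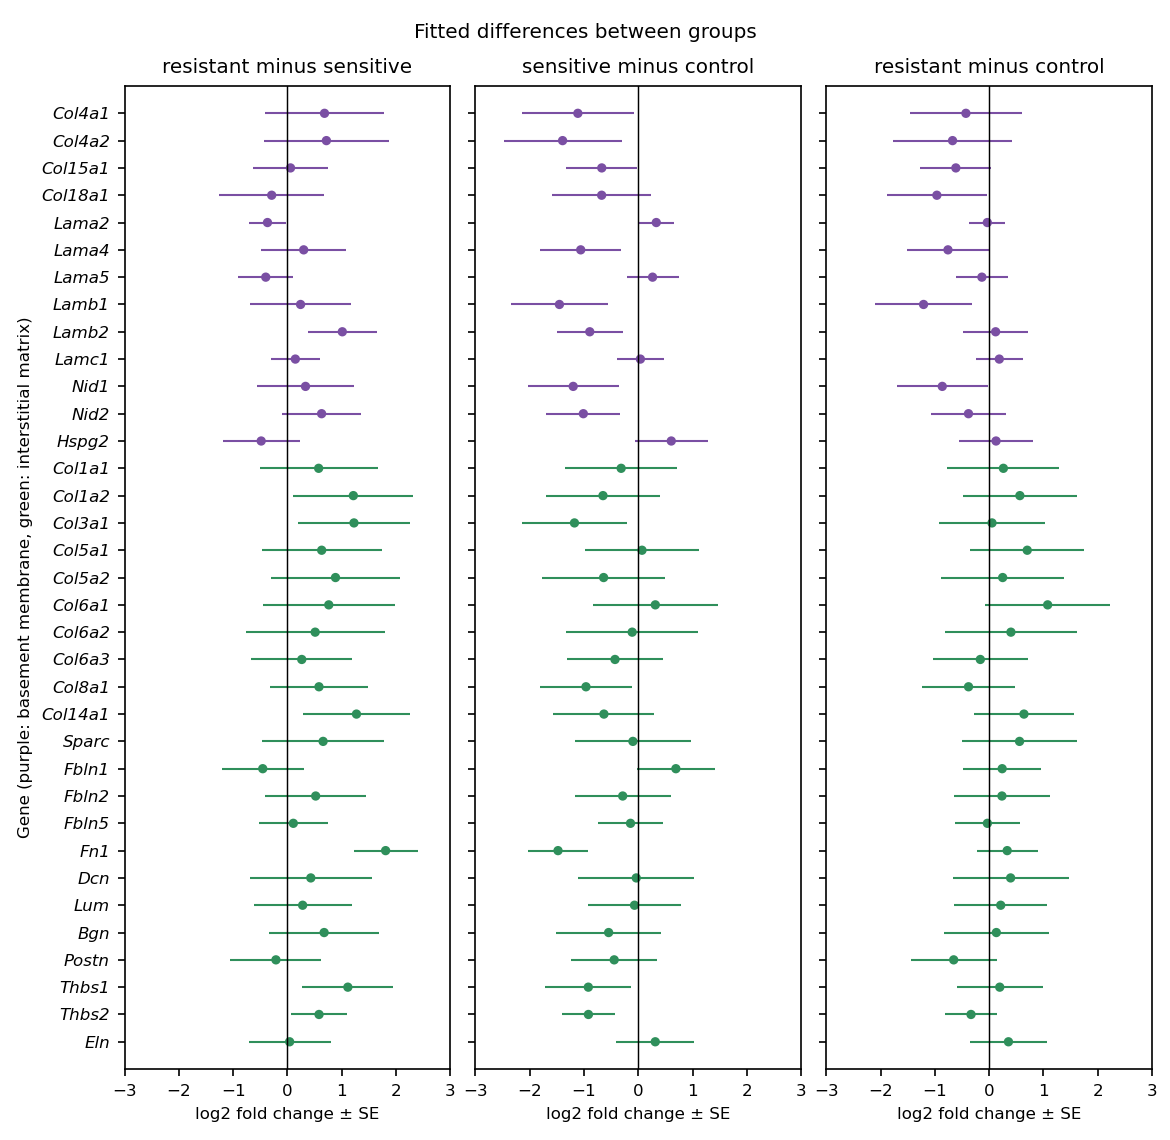
Fitted log2 fold change ± SE of each of 35 matrix genes in the 3 comparisons (panels), with basement membrane genes in purple and interstitial genes in green. All values drawn are from the fit to all 13 arrays, and none of the differences passed the test by limma. In a fit without control arrays 4 and 5, which is not drawn, some basement membrane values against control arrays turned positive. Between sensitive and control arrays they were 0.01 for Lamb1 and 0.16 for Nid2. Between resistant and control arrays they were 0.26 for Lamb1, 0.39 for Col18a1 and 0.02 for Nid1.

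Resistant and control arrays were compared for differences in tumors that had stopped responding. This comparison shares arrays with both other comparisons, and the values are therefore given side by side. Basement membrane genes had lower means on the resistant arrays in 10 of 13 cases (median -0.43) and interstitial genes higher means in 17 of 22 (median 0.24), against a median of 0.03 and 54.3% positive over all genes. By limma 0 of 35 members had an adjusted p under 0.05, as did 0% of all genes, and at an unadjusted p under 0.05 there were 0 higher and 0 lower, against 0.982% and 1.53% of all genes. Run without the random variance model, the methods' t-test gave 0 members after adjustment. Without adjustment it gave 1 of 35, Col14a1, at p under 0.05, against 1041 of all 15370 genes. The basement membrane median was 0.39 without control replicates 4 and 5, and the interstitial median was -0.27 without resistant replicate 2.

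The groups did not overlap in 1 of 35 members, against 2.71% of all genes. The member was Col14a1, named after its values were seen, which averaged 7.07 ± 0.35 (SD, n = 5) over the control arrays and 7.71 ± 0.28 (SD, n = 4) over the resistant arrays, with a log2 fold change of 0.64 (SE 0.93). Another probe set of Col14a1 gave 0.35. The SE, taken from all 3 groups, includes the wide spread of the sensitive arrays, where Col14a1 had an SD of 2.88.

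Col6a1 differed by 1.08 (SE 1.16, exact permutation p = 0.246), and by 0.41 without resistant replicate 2 and 1.87 without resistant replicate 1. Postn differed by -0.65 (SE 0.80, exact permutation p = 0.373), and by -1.31 without resistant replicate 2 and -0.36 without control replicate 3. Thbs2 differed by -0.33 (SE 0.48), and by 0.02 without resistant replicate 1. Lamb1 differed by -1.21 (SE 0.89), Col18a1 by -0.96 (SE 0.92) and Nid1 by -0.86 (SE 0.84), with exact permutation p-values of 0.302, 0.357 and 0.302. Without control replicates 4 and 5 they differed by 0.26, 0.39 and 0.02, and without resistant replicate 2 by -1.79, -1.46 and -1.44. These are genes that stood highest on the control arrays with high endothelial markers.

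**Figure D5:**
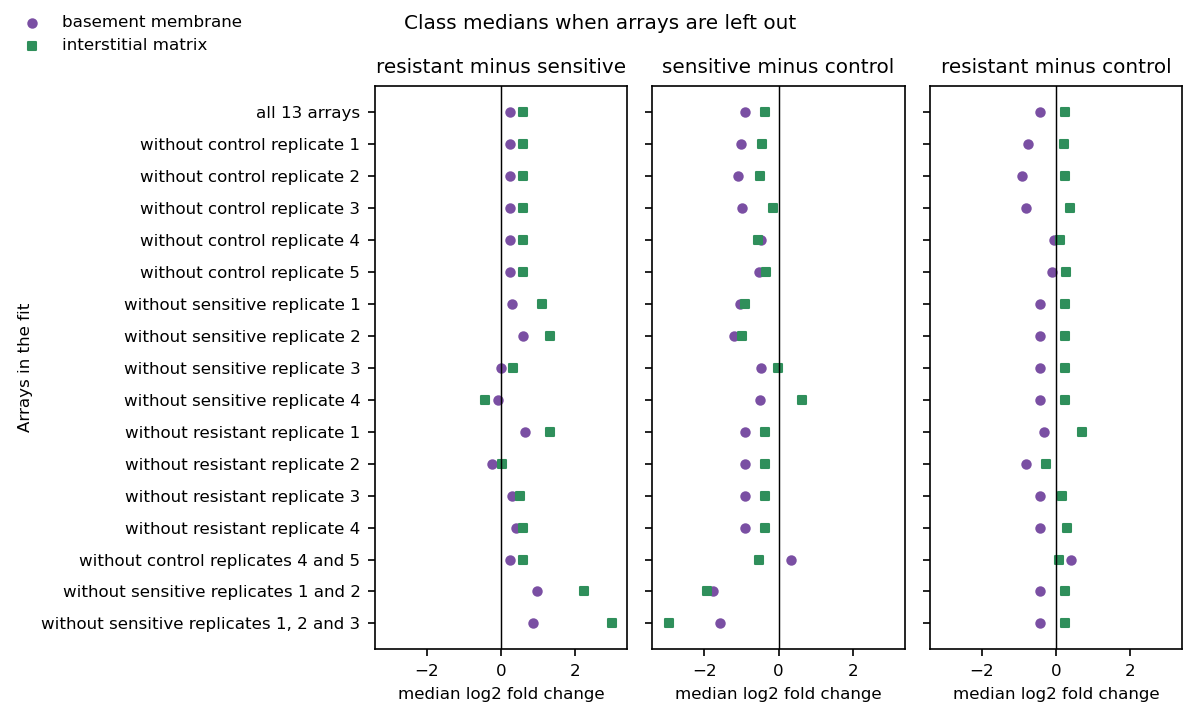
Median log2 fold change of the basement membrane genes (circles) and interstitial genes (squares) in the 3 comparisons (panels), from all 13 arrays and with the arrays named at the left removed. The direction turns for the basement membrane class without control arrays 4 and 5 against control (0.34 and 0.39), and for the interstitial class without sensitive array 4 in the panels that hold the sensitive group (-0.42 and 0.62). Without resistant array 2 the basement membrane median turns in the left panel (-0.24) and the interstitial median in the right panel (-0.27).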

How the data were processed

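Expression was measured in cells labeled as endothelial from control (n = 5), B20-sensitive (n = 4) and B20-resistant (n = 4) tumors. The values deposited by the authors for 45101 probe sets were taken as log2 intensities. Per the labels, biotinylated cRNA was processed with MAS5, no version given, while the study's methods describe Illumina bead chips and BRB-ArrayTools; neither the log base nor the normalization is given in the sources used here. Arrays were quantile normalized, values under the 30th percentile of all values (2.01) were set to it, and 64 control probe sets were left out. The platform annotation gave 1 symbol to 34958 probe sets, several to 932 and none to 9211, which it did not list, and 34754 of the first matched the reference table by Entrez identifier. The probe set brightest on average over the 13 arrays stood for its gene, and 15370 of 18193 genes, those above the floor on at least 4 arrays, were tested. Levels were compared between arrays, within a probe set.

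Group means were fitted in R 4.3.3 with limma 3.58.1 (lmFit, eBayes with an intensity trend, all 3 groups, 10 residual degrees of freedom), two-sided, with Benjamini-Hochberg adjustment over all genes tested, and single members also by an exact two-sided permutation test. The methods' t-test was run without the random variance model. The fit was also run on simulated data with independent normal noise and the same SD per gene in every group. That setting lacks the wider spread of the sensitive arrays, and the run is not used as support here. The number of arrays limits the precision.

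The members, the other lists and the alternatives were chosen with earlier results of these data known. Members given with a test are the 3 with the smallest unadjusted p of each class in each comparison and any called. From the other matrix lists, the 2 with the smallest p between resistant and sensitive arrays are given. Mfap5 stands in both the other matrix and the fibroblast list. Alternatives changed the scaling, floor, filter, probe set rule, variance model, test and groups fitted, or left out arrays.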

Additional observations from a re-analysis of the deposited data

Results flagged for a closer look

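In 2 of 105 sets of arrays, each 1 gene in 1 group, a single array stood far from the rest of its group, where chance gives about 1 in 20. Col8a1 was 7.91 on resistant array 2, against 3.77 on the next resistant array, a gap of 0.844 of the group's range. Postn was 6.94 on control array 3, against 5.67 on the next control array, a gap of 0.742 of the range.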

How the results depend on the processing

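Over 27 results and 30 alternatives, 786 of 808 values were counted as unchanged. For a single gene this meant the same direction and side of the threshold, and for members called the same number. For a class median it meant a move under the pooled SD of array medians within groups (1.12 basement membrane, 1.64 interstitial). A class median whose sign turned could thus count as unchanged, so the count does not show that directions held. Leaving out single arrays, the members called numbered 0 to 1 between resistant and sensitive arrays and 0 to 1 between sensitive and control arrays (Fn1, without sensitive replicate 4), Thbs2 ran from -0.73 to 0.023 between resistant and control arrays and Col3a1 from -1.85 to 0.15 between sensitive and control arrays. The class medians ran from -0.24 to 0.64 (basement membrane) and -0.42 to 1.31 (interstitial) between resistant and sensitive arrays, from -1.20 to -0.47 and -0.98 to 0.62 between sensitive and control arrays, and from -0.92 to -0.05 and -0.27 to 0.72 between resistant and control arrays. Without control replicates 4 and 5, Col18a1, Lamb1 and Nid1 stood at 0.39, 0.26 and 0.022 between resistant and control arrays, and Lamb1, Nid2 and the basement membrane median at 0.015, 0.16 and 0.34 between sensitive and control arrays. Without sensitive replicates 1 and 2, the interstitial median between resistant and sensitive arrays was 2.24, Col14a1 -0.20 and Lama2 0.018. Leaving out sensitive replicates 1, 2 and 3 leaves 1 sensitive array, assumed to vary like the other groups. The interstitial median, Col14a1 and Lama2 were then 3.002, -2.22 and 0.17, and Thbs1 was -1.26. Between sensitive and control arrays the interstitial median was -2.95 and Fn1 was 0.32. Beyond the arrays removed, the cause was not tested. Values as deposited and median centring kept the sign of every class median, and scaling moved an array's median by at most 0.21. With replicate number as a block, 0 members were called, and the basement membrane and interstitial medians were 0.24 and 0.58 between resistant and sensitive, -0.52 and -0.33 between sensitive and control, and -0.11 and 0.27 between resistant and control arrays. Arrays of the same number did not all deviate together, with pair correlations from -0.43 to 0.53, so the number was not taken as a pairing.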
